A study of Mus musculus with 2 samples.

Results

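Somatostatin-dominant D cells were taken from single-cell RNA-seq of sorted cells of the mouse small intestine. A barcode, the tag of 1 droplet, was a member when it held at least 500 genes and 1000 UMIs, at most 25% mitochondrial UMIs and fewer than 3 UMIs of Neurog3, and when Sst had the most UMIs of 7 hormone genes (Gip, Gcg, Pyy, Cck, Sst, Ghrl and Nts) and made at least 1% of all UMIs. A UMI marks 1 captured transcript molecule. The rule gave 148 members among 8761 kept barcodes, 42 of 3129 in the WT library and 106 of 5632 in the library labelled NFKO. These barcodes are called Sst-dominant here. They were compared with the 595 WT and 1206 NFKO-labelled barcodes in which another of the 7 hormones led under the same rule, called other hormone-dominant barcodes. The members were chosen by their UMIs of the 7 hormones, so the levels of these genes are a description.

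Mice of both groups carried a Cre recombinase under Neurog3 (Neurog3Cre) and the reporter Rosa26tdtomato, so that descendants of Neurog3-expressing progenitors became red and were sorted as Tomato-positive cells. The mice labelled NFKO also carried FoxO1 f/f, floxed alleles of the transcription factor FoxO1. Each group was 1 library made from the whole small intestine of 4 to 5 mice aged 4 to 6 weeks, with the attached pancreas removed. Cells of several regions and animals were therefore pooled, and a difference between the groups cannot be told apart from one between libraries, sorts or mice. The sex of the mice differed too: by transcripts of 4 Y-linked genes and Xist, 33 of the 42 WT members were typed male and none female, against 8 male and 90 female among the 106 members of the NFKO-labelled library.

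D cells are enteroendocrine cells that release somatostatin, a peptide that acts mostly on near neighbours and lowers the release of many other gut and islet hormones. They are scattered as single cells along the epithelium from the stomach to the colon, and in islets a related cell type makes the same hormone. Hhex is a homeodomain factor needed for islet delta cells, and Pdx1 and Isl1 are factors shared by islet and gut endocrine cells.

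The WT members held a median of 8151 UMIs (2611 to 47457) and 2907 genes, and those of the NFKO-labelled library 16434 UMIs (2076 to 76887) and 4389 genes. The median mitochondrial share was 7.70% in WT members and 2.59% in the others. Summed over members, 435112 and 1890796 UMIs were available, so that a floor of 3 UMIs stands at 6.89 CPM in WT and 1.59 CPM in the NFKO-labelled library, where CPM means UMIs of a gene per 1000000 UMIs of the class. With 1 library per group there was no test, and every interval below is a 95% interval that covers counting error only. The libraries shared 6 barcode sequences, none of them a member. The markers of immune and of pancreatic exocrine cells had no UMI in any member. Goblet transcripts were present: 2 WT and 10 NFKO-labelled members held at least 1% of UMIs from 6 goblet markers, and among these 2 and 3 had high doublet scores.

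The proximal promoter of Sst carries the cyclic AMP response element in which this class of site was first worked out, and is bound by homeodomain factors whose core is TAAT. Short windows from the RefSeq promoter table (GRCm38.p6) are shown for Sst, the gene that defines the cells, and for Iapp, whose share of UMIs followed that of Sst across the members. The Sst windows lie on the minus strand at chr16:23890874-23890903 (59 to 30 bases before the start) and chr16:23890923-23890952 (108 to 79 bases before it), and the Iapp stretch on the plus strand at chr6:142298175-142298422 (250 to 3 bases before the start). Distances are from the RefSeq start. The GENCODE model of Sst reaches further upstream, and all 30 bases of each Sst window lie in a GENCODE exon. Capitals mark TGACGTCA and TAAT or its reverse complement ATTA.
Sst, cyclic AMP response element: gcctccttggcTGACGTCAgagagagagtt
Sst, TAAT: gattttgcgaggcTAATggtgcgtaaaagc
Iapp, upstream stretch: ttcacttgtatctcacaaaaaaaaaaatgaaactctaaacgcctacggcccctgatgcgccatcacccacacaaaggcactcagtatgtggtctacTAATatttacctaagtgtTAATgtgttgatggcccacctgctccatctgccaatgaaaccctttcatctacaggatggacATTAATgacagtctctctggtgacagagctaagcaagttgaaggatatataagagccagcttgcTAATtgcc
Of 32851 mouse promoters in that table, 508 (1.55%) held TGACGTCA in the 250 bases before the start, counting either strand of this palindrome. TAAT on either strand was in 54.9% of them, and the 5 sites of Iapp, 1 overlapping pair among them, were matched or exceeded in 5.54%. A match is a description of the letters and no evidence of binding. None of the 15 promoters listed for 11 of the genes named below as higher in D cells held TGACGTCA.

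Sst itself (chromosome 16, 23889573 to 23890958, minus strand) made a median of 9.63% of a member's UMIs in WT, from 1.03% to 32.0%, and 20.9% in the NFKO-labelled library, from 1.07% to 36.3%. The lowest members therefore lay just above the threshold, and the nearest barcodes left out for it held 0.883% and 0.932% Sst. In the deposited barcodes as a whole, 51 in WT and 126 in the other library were led by Sst at 1% or more, of which 9 and 20 fell to the filters on depth, mitochondrial share or Neurog3. The members were 1.34% of the kept WT barcodes (0.969 to 1.81%) and 1.88% of those of the NFKO-labelled library (1.54 to 2.27%), a ratio of 1.40 whose interval of 0.972 to 2.06 included 1. Among hormone-dominant barcodes they made 6.59% (4.79 to 8.81%) and 8.08% (6.66 to 9.69%), a ratio of 1.23 (0.850 to 1.80). With a minimum of 5000 UMIs a barcode, the shares of kept barcodes were 0.959% (0.627 to 1.40%) and 2.11% (1.71 to 2.56%), whose intervals did not overlap. Among hormone-dominant barcodes the shares at this minimum were 5.27% (3.47 to 7.63%) and 8.74% (7.15 to 10.6%), whose intervals overlapped. No interval of the ratio was calculated at this minimum, and overlap of the share intervals does not show that such an interval would include 1. With either denominator the shares of the libraries lay further apart at the 5000 UMI minimum. A difference in the share of D cells between the libraries was not tested.

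Hhex, which took no part in the rule, marked nearly all of these cells. It stood at 738 CPM in WT members (659 to 823) against 0.531 CPM in other hormone-dominant barcodes, where 4 UMIs were found, a ratio of 1390 (538 to 5134). In the NFKO-labelled library the values were 756 CPM (717 to 796) and 14.9 CPM, a ratio of 50.8 (44.9 to 57.7). A UMI of Hhex was seen in 40 of 42 and 102 of 106 members, with a median of 4 and 12 UMIs and a highest count of 38 and 39. The 2 WT members without Hhex held 2712 and 2816 UMIs, and the 4 of the other library 2076 to 2737, so that the members lacking it were among the shallowest. Their Sst shares were low too, 5.49% and 1.03% in WT and 1.07% to 2.55% in the NFKO-labelled library. Of the 4, 2 held 52 and 38 UMIs of the goblet gene Zg16 and none of Isl1. After thinning of every barcode to 2000 UMIs, Hhex was seen in 71.4% of WT and 79.2% of NFKO-labelled members, against 0.148% and 0.345% of goblet barcodes, which serve as the background of free RNA.

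The marker that the rule did not use was thus met, and the general enteroendocrine panel was expressed. Its 6 genes (Chga, Chgb, Neurod1, Scg3, Pcsk1 and Cpe) together made 8009 CPM in WT members and 5202 CPM in the others, against 11238 and 9867 CPM in other hormone-dominant barcodes and 440 and 823 CPM in goblet barcodes. Tph1, which makes serotonin in enterochromaffin cells, had no UMI in WT members and 8.99 CPM in the others.

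**Figure D1:**
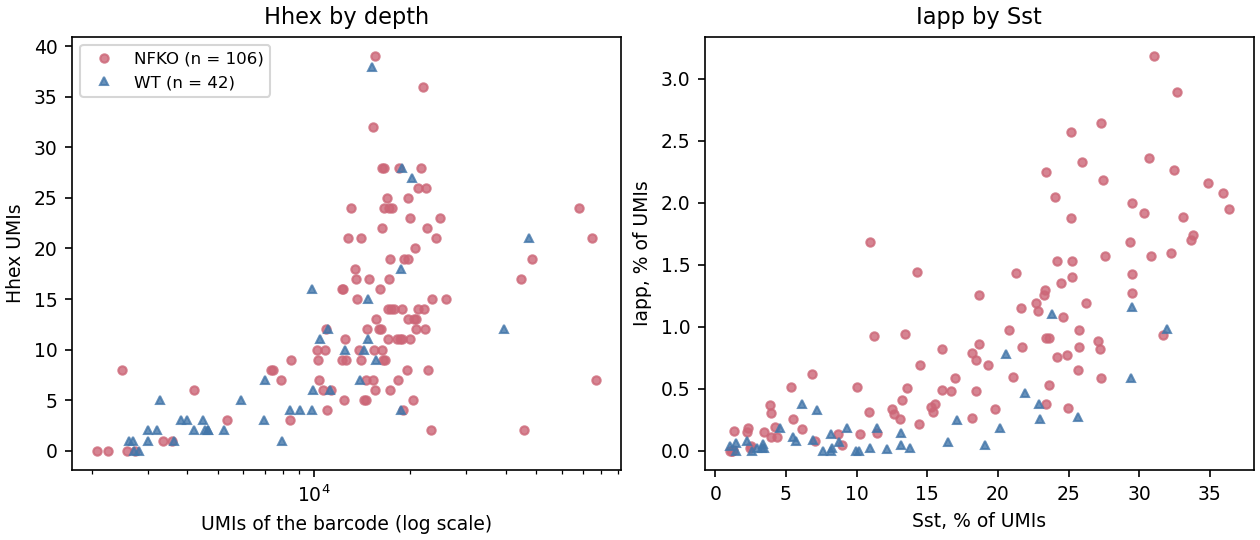
Left, Hhex UMIs of each Sst-dominant barcode against its total UMIs on a log axis; right, the Iapp share against the Sst share, both as % of the barcode's UMIs. Each circle is 1 of 106 barcodes of the NFKO-labelled library and each triangle 1 of 42 WT barcodes. Barcodes without Hhex lie at the shallow end, and at like Sst shares the NFKO-labelled barcodes mostly lie above WT for Iapp.

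In a knockout design the targeted gene comes first. Foxo1 (chromosome 3, 52268336 to 52353221, plus strand) stood at 43.7 CPM in WT members (26.3 to 68.2, 19 UMIs in 16 barcodes) and 28.0 CPM in those of the NFKO-labelled library (21.0 to 36.7, 53 UMIs in 41 barcodes), a ratio of 0.642 (0.374 to 1.15). Foxo1 transcripts were thus not lost in the members of that library. Its close relative Foxo3, which was not floxed, had a ratio of 0.583 (0.313 to 1.14). The library counts 3′ ends, and the position of the floxed part was not given in the sources used here, so this level does not check the deletion. Of 18 genes listed as known FoxO targets, 7 passed the minimum used for folds (50 CPM in one side and 30 UMIs over both) between the libraries, and none differed by more than 2-fold. Their median log2 ratio was -0.10, against -0.08 over all 3466 genes tested.

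Of 3278 genes that passed this minimum in the NFKO-labelled library, 119 (3.63%) were more than 2-fold higher and 180 (5.49%) more than 2-fold lower in D cells than in other hormone-dominant barcodes, 299 (9.12%) in all. In WT the counts were 154 (4.25%) and 203 (5.6%) of 3622, or 357 (9.86%) in all. The median log2 ratio over all genes tested was -0.04 and -0.02. Of the 3062 genes tested in both libraries, 71 were higher in both, which is 78.9% of the 90 higher in the NFKO-labelled library and 72.4% of the 98 higher in WT. For lower genes the shared number was 106, or 69.3% of 153 and 59.6% of 178. With the 7 hormone genes left out of the denominator the split between higher and lower became 177 and 184 in the NFKO-labelled library and 203 and 211 in WT, and against Ghrl-dominant barcodes alone 544 WT genes were past 2-fold. The genes named next were ranked in the NFKO-labelled library, and their WT values took no part in that choice.

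Among the genes higher in D cells, Kcnk2 had the highest ratio in the NFKO-labelled library. Kcnk2, a background potassium channel opened by stretch and lipids, stood at 129 CPM against 0.436 CPM in other hormone-dominant barcodes of the NFKO-labelled library, and at 122 against 0.398 CPM in WT, ratios of 295 and 306. It was nearly absent from other hormone-dominant and goblet barcodes in both libraries, with no UMI in Ghrl-dominant barcodes of either. Its level in further cell types was not examined. Glp1r, the receptor for the incretin GLP-1, stood at 262 against 7.02 CPM and in WT at 145 against 0.663 CPM. A UMI of Glp1r was seen in 88 of 106 and 26 of 42 members. Asic5, an acid-sensing channel family member that responds to bile acids, stood at 1851 against 44.3 CPM and in WT at 437 against 12.5 CPM, so that the fold was alike (41.8 and 35.0) while the level was not.

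Iapp (chromosome 6, 142298423 to 142303961, plus strand) encodes amylin, a peptide that islet beta cells release with insulin. Iapp stood at 9570 CPM against 104 CPM in the NFKO-labelled library and at 3087 against 3.58 CPM in WT, ratios of 92.2 and 862. Arg1, the urea-cycle arginase, stood at 261 against 4.21 CPM and in WT at 244 against 7.03 CPM. Fam151a had 134 against 2.13 CPM, and in WT 39.1 CPM with no UMI among the other hormone-dominant barcodes. Serpina1a, an alpha-1-antitrypsin gene, stood at 584 against 41.5 CPM and in WT at 82.7 against 11.8 CPM, but Ghrl-dominant barcodes held 274 and 64.8 CPM of it. Serpina1a belongs to a cluster of near-identical copies, and reads shared among them make its level uncertain.

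Further genes were higher by 10.3-fold to 24.8-fold in the NFKO-labelled library. They were Dab1, a Reelin signal adaptor, the myosin light chain kinase Mylk, the collagen Col27a1, the complement inhibitor Serping1, the progenitor factor Sox9 and Tmem252. Each was also higher in WT, from 4.17-fold for Serping1 to 24.9-fold for Col27a1. Sox9, which is known from crypt and ductal progenitors, stood at 167 against 16.2 CPM and in WT at 218 against 24.7 CPM, and goblet barcodes held 88.5 and 152 CPM of it.

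**Figure D2:**
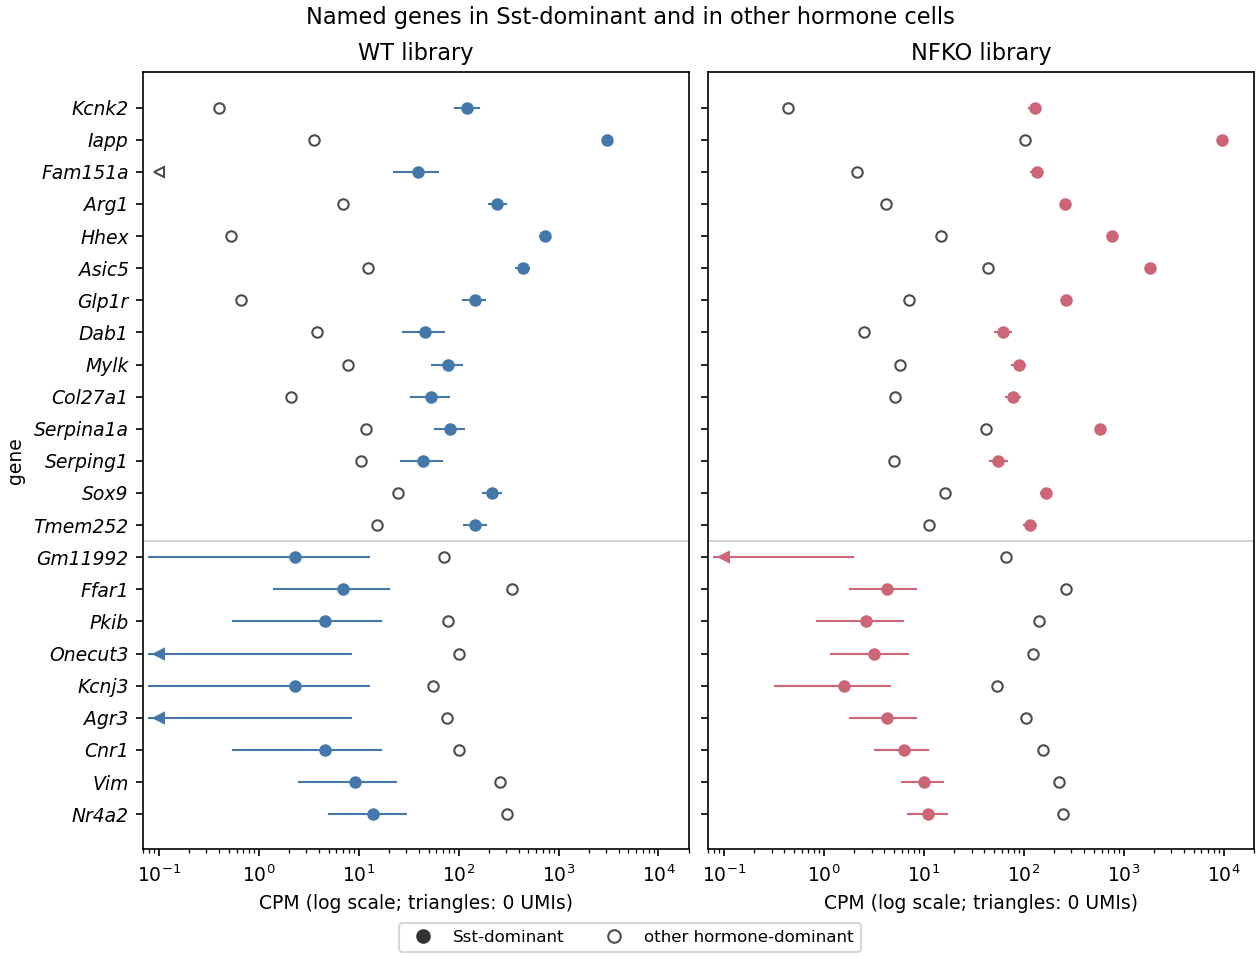
CPM on a log axis of 14 of the genes with the highest and 9 of those with the lowest ratio in the NFKO-labelled library, in Sst-dominant (filled) and other hormone-dominant (open) barcodes, WT left and NFKO-labelled right. Lines are exact Poisson intervals for counting error and triangles mark 0 UMIs; the genes above the grey line were higher and those below it lower in Sst-dominant barcodes of both libraries.

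Receptors were among the lower genes. Ffar1, a receptor for long-chain fatty acids, stood at 4.23 CPM against 265 CPM in the NFKO-labelled library and in WT at 6.89 against 342 CPM. Gpr119, a receptor for fatty-acid amides, had 5 UMIs in NFKO-labelled members and none in WT, against 52.8 and 61.6 CPM. Cnr1, a cannabinoid receptor, stood at 6.35 against 156 CPM and in WT at 4.60 against 102 CPM, but Ghrl-dominant barcodes were also low (1.12 and 1.01 CPM) and Gip-dominant ones high (336 and 323 CPM).

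The same split held for Vim and Pkib, which were high in Gip-dominant barcodes and low in both D and Ghrl-dominant ones. Vim, an intermediate filament gene, stood at 10.0 CPM in NFKO-labelled members, 176 CPM in Gip-dominant and 3.36 CPM in Ghrl-dominant barcodes. Nr4a2, an activity-induced nuclear receptor, was low in D cells (11.1 against 248 CPM, and in WT 13.8 against 305 CPM) and high in both of the other classes. Kcnj3, a G-protein-gated potassium channel, Agr3, the factor Onecut3 and Gm11992 completed the group, each under 5 CPM in the members of both libraries. Agr3 was as low in Gip-dominant barcodes (4.33 CPM, and in WT 4.49 CPM). Kcnj3 was also low in Ghrl-dominant ones (7.29 CPM, and in WT 2.02 CPM). Onecut3 was low in Gip-dominant ones too (12.0 CPM, and in WT 0.998 CPM).

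Of 35 endocrine transcription factors, 23 passed the minimum in each library. Against the background shares above, 4 were higher and 6 lower in the NFKO-labelled library, and 3 were higher and 5 lower in WT, with medians of -0.15 and -0.01. Pdx1, which specifies pancreas and duodenum, stood at 168 against 39.3 CPM and in WT at 91.9 against 14.7 CPM. Sox4, a factor of early endocrine differentiation, stood at 662 against 177 CPM and in WT at 795 against 196 CPM. Both were higher in each library by more than 2-fold, as was Hhex. Runx1t1 was 196 against 79.9 CPM and in WT 239 against 122 CPM, ratios of 2.45 and 1.96.

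Neurod1, a factor of all enteroendocrine cells, was 257 against 835 CPM and in WT 386 against 1057 CPM, ratios of 0.308 and 0.365. Etv1 stood at 15.9 against 326 CPM and in WT at 23.0 against 530 CPM. Onecut3 was also lower in both libraries. Isl1, a LIM-homeodomain factor, was 1133 against 596 CPM and in WT 1140 against 711 CPM, ratios of 1.90 and 1.60, and Ghrl-dominant barcodes held as much (1217 and 1279 CPM). Nkx6-1 and Mafa, factors of mature beta cells, had no UMI in any member.

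Granule genes were mostly shared with the other hormone cells or lower. Of 17, 14 and 13 passed the minimum. Chga, the classic granin, had ratios of 0.443 in the NFKO-labelled library and 0.477 in WT, yet its 286 and 255 CPM in D cells were near the 305 and 213 CPM of Gip-dominant barcodes and under the 1607 and 976 CPM of Ghrl-dominant ones. Scg2, another granin, had ratios of 0.455 and 0.225, and Pam, which amidates peptides, 0.405 and 0.399. The list's median log2 ratio was -0.80 and -0.34. Pcsk2, the prohormone convertase 2 gene, passed 2-fold in the NFKO-labelled library on 136 UMIs, of which 133 lay in 4 members, and had none in WT. Those 4 members, chosen after their values were seen, had more Meis2 (329 against 18.2 CPM) and Pck1 (299 against 11.4 CPM) and less Cdx2 (38.3 against 148 CPM) and Ghrl (4602 against 30647 CPM) than the other 102, while Hhex was 505 against 774 CPM.

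Of 45 receptors, 15 had no UMI in any member, among them Ghsr, the ghrelin receptor, and Vipr2 and Lepr. Only 6 and 7 passed the minimum, with medians of -2.33 and 0.26. Glp1r was higher in both libraries and Ffar1, Gpr119 and Cnr1 lower. Adra2a, an inhibitory adrenergic receptor, stood at 52.9 against 5.57 CPM in WT and at 20.6 against 4.07 CPM in the NFKO-labelled library, where it did not reach the minimum. Ffar2, a receptor for short-chain fatty acids, was similar in D and other cells (119 against 89.8 CPM, and in WT 96.5 against 109 CPM).

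Among somatostatin's own receptors, Sstr1 stood at 50.8 against 30.9 CPM in the NFKO-labelled library and at 57.5 against 16.6 CPM in WT, ratios of 1.64 and 3.47. Sstr5 was 9.52 against 37.4 CPM and in WT 4.60 against 39.3 CPM, on 18 and 2 UMIs. Cort, which encodes the related peptide cortistatin, and Sstr4 had no UMI in members.

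Of 25 ion channels, a list that did not hold Kcnk2, 7 in the NFKO-labelled library and 6 in WT passed the minimum, with medians of 0.30 and 0.19. Asic5 was higher in both libraries. Scn3a, a sodium channel subunit, was past 2-fold higher in WT (340 against 151 CPM) and not in the NFKO-labelled library (111 against 86.7 CPM), and Cacna2d1 was lower in WT. Of 20 exocytosis genes, 10 passed the minimum in each library, with medians of -0.33 and -0.26. Syt5, a calcium sensor of granule release, was 86.7 against 32.0 CPM and in WT 48.3 against 21.0 CPM, and Cadps, which primes granules, had ratios of 0.468 and 0.191. Of 9 genes known from islet delta cells, 3 passed in each library (medians -0.32 and 0.57), of which Hhex was higher and Nrn1 lower (0.331 and 0.175). Rbp4 had ratios of 0.803 and 1.48, and Ghsr and Lepr had no UMI. Of 14 islet beta genes, 5 and 4 passed (medians 2.09 and 1.45), Iapp and Pdx1 were higher in both libraries, and Ins1, Ins2, Mafa, Nkx6-1, Slc30a8 and G6pc2 had no UMI in any member.

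Position along the gut was examined with 14 genes, of which 5 and 6 passed, with medians of 0.03 and 0.11. Fabp6, the ileal bile acid binding protein, was low (5.82 against 64.0 CPM, and in WT 20.7 against 104 CPM), while Cdx2 did not separate the classes (ratios of 1.02 and 0.895). Of 18 FoxO target genes, 6 and 8 passed, with medians of 0.01 and 0.03. Cat, which encodes catalase, was higher in both libraries (55.0 against 15.2 CPM, and in WT 50.6 against 12.1 CPM), while Gadd45a was lower in the NFKO-labelled library and Pdk4 and Cdkn1b in WT. Of 13 stress genes, 11 and 12 passed, none differed by 2-fold in the NFKO-labelled library and Atf3 and Dnajb1 were lower in WT.

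A second hormone was common in D cells, and most often it was ghrelin. After Sst, Ghrl had the most UMIs in 25 of 42 WT and 72 of 106 NFKO-labelled members, Gip in 12 and 18, and Pyy in 2 and 11. Ghrl made a median of 0.189% of UMIs in WT members (0 to 6.53%) and 1.95% in the others (0 to 14.8%). It reached 1% in 9 WT members (21.4%, 10.3 to 36.8%) and 69 NFKO-labelled members (65.1%, 55.2 to 74.1%).

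Gip reached 1% in 5 WT members (11.9%) and 23 of the NFKO-labelled library (21.7%). Pyy reached it in none of 42 and in 13 of 106. Sct, which encodes secretin, had UMIs in every member and reached 1% in none of the WT members and 16 of the others. No second hormone of the rule reached 1% in 28 WT and 28 NFKO-labelled members, 1 did in 14 and 52, 2 in 0 and 24, and 3 in 0 and 2.

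Goblet barcodes give an approximate background of free RNA. Barcodes led by a hormone at 1% or more were not counted as goblet, except those with 3 or more Neurog3 UMIs or a tied lead. Ghrl reached 1% in 6 of 1358 WT and 45 of 2847 NFKO-labelled goblet barcodes, Gip in 0 and 2, and Pyy in 0 and 1. This background may therefore not be free RNA alone. Thinned to 2000 UMIs, 76.2% of WT and 92.5% of NFKO-labelled members kept a UMI of Ghrl, against 3.17% and 14.7% of goblet barcodes, and unthinned the shares were 85.7% and 97.2%. For Gip the thinned shares were 47.6% and 65.1%, against 7.75% and 38.6% of goblet barcodes. For Pyy they were 23.8% and 52.8%, against 1.70% and 8.16%. Gip UMIs were thus seen in many goblet barcodes of the NFKO-labelled library, and single UMIs of Gip there are not read as expression.

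**Figure D3:**
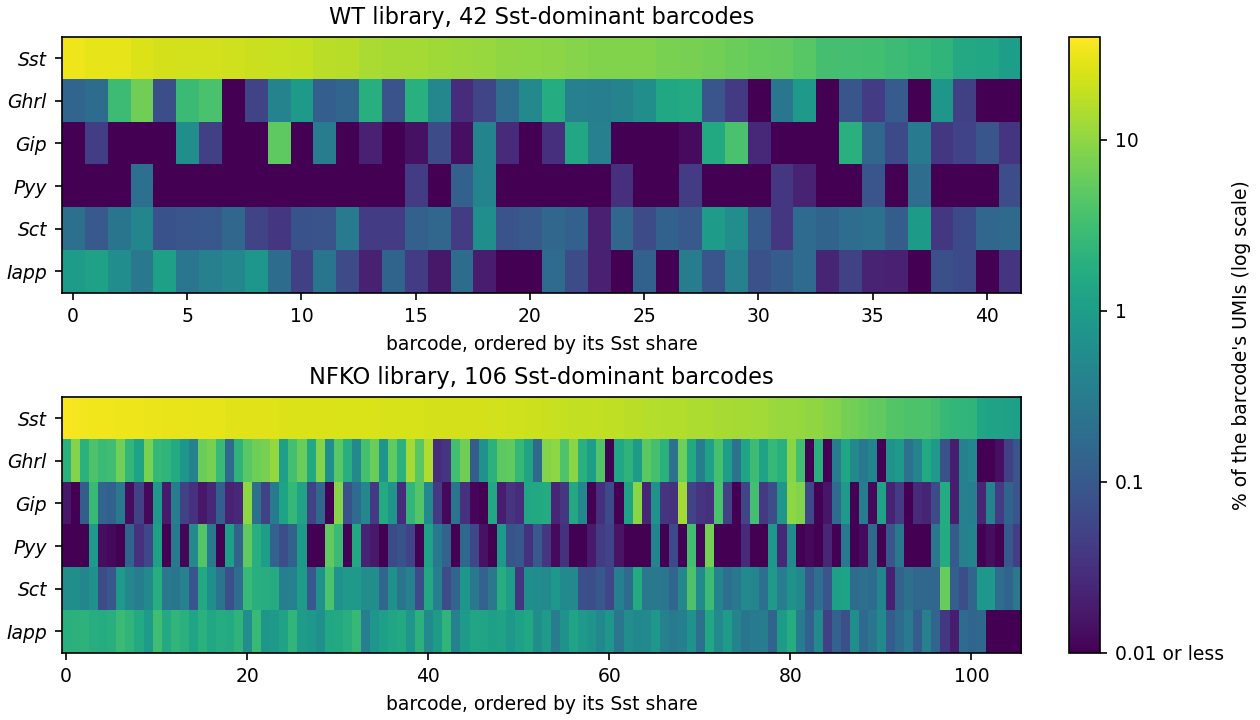
Share of each barcode's UMIs from Sst, Ghrl, Gip, Pyy, Sct and Iapp on a log colour scale, with WT above and the NFKO-labelled library below. Each column is 1 Sst-dominant barcode, ordered by its Sst share from high to low; Ghrl at 1% or more is seen in 9 of 42 and 69 of 106 columns, and Gip or Pyy in fewer.

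Iapp followed Sst across members. It reached 1% of UMIs in 2 WT and 40 NFKO-labelled members, with medians of 0.0775% (0 to 1.16%) and 0.803% (0 to 3.18%). Across the 106 NFKO-labelled members Spearman's rho between the Sst and Iapp shares was 0.839, and across the 42 WT members 0.571. For Sst and Hhex it was 0.188 and 0.371, and for Sst and Ghrl 0.512 and 0.409. These are descriptions over cells of 1 library, which share its depth and its free RNA.

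Members with Ghrl at 1% or more also differed from the rest in other genes. This split was chosen after the values were seen. In the NFKO-labelled library the 69 such members held 2562 CPM of Asic5, against 619 CPM in the other 37, and 11674 against 5924 CPM of Iapp. Apom, an apolipoprotein gene, was 94.3 against 15.9 CPM, and the division genes Birc5 (3.34 against 126 CPM) and Hmgb2 (82.6 against 384 CPM) were lower. In WT members Birc5 had no UMI on either side and Hmgb2 was 82.1 against 67.0 CPM. In WT, where 9 members were compared with 33, Asic5 was 706 against 332 CPM and Iapp was 3014 against 3115 CPM. Serpina1a pointed in opposite directions, 792 against 225 CPM in the NFKO-labelled library and 16.4 against 109 CPM in WT. The 9 WT members held only 2 UMIs of it, under the floor of 3. Reg3b also pointed in opposite directions, with 3103 against 7138 CPM in the NFKO-labelled library and 14289 against 839 CPM in WT.

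The members with Gip at 1% or more, again a split chosen after the values were seen, held less Reg3b, an antimicrobial lectin. It was 388 CPM in the 23 such members of the NFKO-labelled library against 5498 CPM in the other 83, and in WT 569 CPM in 5 against 4939 CPM in 37. Rbp2, a retinol carrier of the proximal gut, was 727 against 210 CPM and in WT 390 against 107 CPM. Agr2, a goblet gene, was 177 against 2897 CPM and in WT 89.9 against 851 CPM, a lower sum as well in the members with Gip. A UMI of Agr2 was seen in 18 of the 23 and 71 of the 83, and in WT in 3 of the 5 and 20 of the 37. How far the members with many goblet transcripts made up the difference was not tested. In WT the Reg3b UMIs lay mostly in the 9 members with Ghrl at 1% or more as given above.

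Between the libraries, 3466 genes were tested in D cells. Of these, 91 (2.63%) had more than 2 times the WT level in the library labelled NFKO, and 154 (4.44%) were under 0.5 of it, 245 (7.07%) in all. The number past 2-fold was 450 without the barcodes of highest doublet score (162 higher and 288 lower), 424 in male-typed barcodes (70 and 354) and 628 with each barcode at the same weight (217 and 411). The split depended on the denominator: without the 7 hormone genes it was 194 higher and 131 lower. The genotype cannot be told apart from the sex of the mice and from the library, and WT members were shallower with a larger mitochondrial share, as given above. Values in other hormone-dominant barcodes are set beside most genes, and those in male-typed members (33 WT and 8 NFKO-labelled) for some of them. Of the ratios of the 124 named or listed genes with a value in male-typed members, 55 stayed within their counting interval over all members, 64 left it and 5 changed side of 1.

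Iapp and Asic5 were higher in the NFKO-labelled library, while Kcnk2 and Hhex were not past 2-fold. Iapp was 9570 against 3087 CPM, a ratio of 3.10, and in male-typed members the ratio was 4.63 (4.31 to 4.98). Asic5 had a ratio of 4.24, and 5.67 in male-typed members (4.61 to 6.99). Kcnk2 was 129 against 122 CPM, a ratio of 1.06 (0.781 to 1.45). Hhex did not follow either, with 756 against 738 CPM and 1.36 (1.07 to 1.71) in male-typed members. Within D cells, the levels of Iapp and Asic5 thus lay further apart between the libraries than those of Hhex and Kcnk2. In other hormone-dominant barcodes the ratios were 29.0 for Iapp, 3.55 for Asic5 and 28.0 for Hhex, the last on 4 WT UMIs. Kcnk2 had 1.10 there (0.273 to 6.29). In the NFKO-labelled library much of this lay in 19 Gip-dominant barcodes with 3 or more Hhex UMIs, chosen after their values were seen. Of the UMIs in other hormone-dominant barcodes they held 1170 of 2142 for Iapp, 233 of 307 for Hhex and 361 of 915 for Asic5. The higher Iapp, Asic5 and Hhex were thus seen outside Sst-dominant barcodes, but most Iapp and Hhex UMIs there came from these few barcodes, not from other hormone cells at large.

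Secreted plasma-protein genes were among the highest ratios. Ambp, the bikunin precursor, was 200 against 6.89 CPM, a ratio of 29.0 (9.85 to 141) on 3 WT UMIs. Its ratio was 2.25 in other hormone-dominant barcodes and 12.0 (3.16 to 66.8) in male-typed members. Serpina1c, a copy of the alpha-1-antitrypsin gene, was 160 against 4.60 CPM, a ratio of 34.7 (9.54 to 288). Its WT side held 2 UMIs, under the floor of 3. The ratio was 1.65 in the other barcodes and 58.8 (15.1 to 504) in male-typed members. Ghrl-dominant barcodes held more Serpina1c than D cells, 940 CPM in the NFKO-labelled library and 422 CPM in WT. Serpina1a was 584 against 82.7 CPM, a ratio of 7.06, with 3.51 in the others and 18.9 in male-typed members. For each of them the ratio in D cells lay above that in the other hormone cells.

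Id1, an inhibitor of helix-loop-helix factors, was 323 against 50.6 CPM, a ratio of 6.39, with 1.44 in the other barcodes. Dlk1, an imprinted gene for a Notch-like membrane protein, had no UMI in WT members and 102 CPM in the others. That level was 14.8-fold the floor of 3 WT UMIs, and the interval of the ratio began at 11.9. The Dlk1 ratio was 6.69 in the other barcodes. Zg16 and Mptx1 are goblet and crypt secretory genes and were far higher in goblet barcodes. Zg16 was 3151 against 503 CPM, a ratio of 6.26, with 3336 of its UMIs in 1 NFKO-labelled member. In male-typed members the ratio was 0.671 (0.474 to 0.932). In other hormone-dominant barcodes Zg16 was 3657 against 363 CPM, a ratio of 10.1, so its difference was not confined to D cells. Mptx1 had no UMI in WT members and 154 CPM in the others, but 224 of its 292 UMIs lay in 1 member. It stood at 22.4-fold the floor of 3 WT UMIs, and the interval of its ratio began at 18.1. In other hormone-dominant barcodes its ratio was 89.1, on 6 WT UMIs. The summed goblet panel was 5870 CPM in WT members, from 148 to 88451 CPM per member, and 11732 CPM in the others, from 408 to 123844 CPM. An alternative added after seeing the data kept only the members whose goblet markers, Zg16 among them, made under 1%. This limit acts on Zg16 itself, and the Zg16 ratio was then 4.92. Of the ratios of 133 named or listed genes, 116 then stayed within their counting interval, 16 left it and 1 changed side of 1.

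Heat-shock genes led the lower side. Hspa1b was 36.0 against 218 CPM, a ratio of 0.165, with 0.137 in other hormone-dominant barcodes and 0.0768 in male-typed members. Hspa1a was 55.0 against 294 CPM, a ratio of 0.187, with 0.114 in the others. Of 12 stress genes tested, 5 were more than 2-fold lower (Jun, Hspa1a, Hspa1b, Hsph1 and Hsp90aa1) and none higher, with a median log2 ratio of -0.88. The ratios of Hspa1a and Hspa1b in other hormone cells were as low as in D cells.

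Gm26917, a long non-coding RNA, was 57.1 against 333 CPM, with a ratio of 0.171 in D cells and 0.193 in the others. Gm42418, a non-coding gene close by on the same strand of chromosome 17, which was named after its values were seen, was 8677 against 39381 CPM, with ratios of 0.220 and 0.227. Whether reads were shared between the pair was not tested. Lars2, on chromosome 9 and also named afterwards, had ratios of 0.233 and 0.216. Cebpd, Ccn1, Wee1, Myo18a and Gm42937 were lower too, with ratios from 0.175 to 0.218 in D cells and 0.337 to 0.691 in the others. Among the other lists, none of 10 exocytosis genes tested was past 2-fold (median 0.49), and of 21 transcription factors (median -0.26) Rfx6 alone was (67.2 against 175 CPM). Scn3a (111 against 340 CPM) and Adra2a (20.6 against 52.9 CPM) were lower, and Scg5, a chaperone of convertase 2, was higher (376 against 152 CPM).

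**Figure D4:**
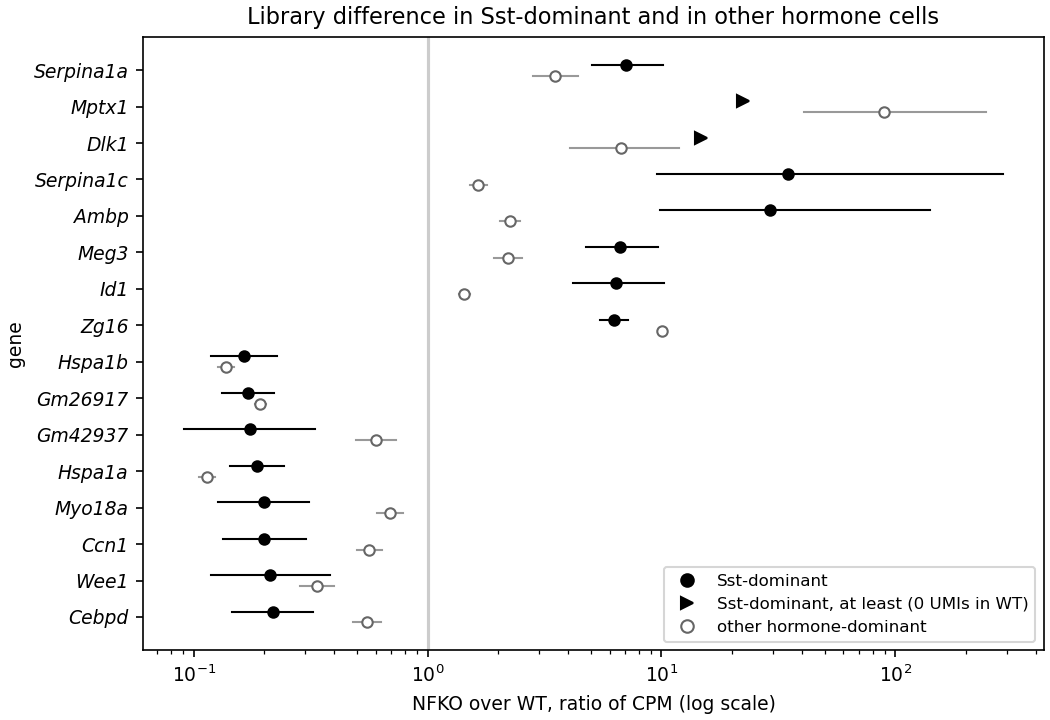
Ratio of CPM, NFKO-labelled over WT, on a log axis for the 16 genes with the highest and lowest ratios in Sst-dominant barcodes (filled) and the same genes in other hormone-dominant barcodes (open). Lines are exact conditional binomial intervals for counting error, and triangles mark lower bounds where WT had 0 UMIs; Hspa1b, Hspa1a and Gm26917 were low in both classes, while Serpina1c, Ambp and Id1 had lower ratios in the other class.

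Meg3, an imprinted non-coding RNA of the Dlk1-Dio3 domain on chromosome 12, was present in some D cells and absent from others. It was 537 against 80.4 CPM between the libraries, a ratio of 6.68, with 2.20 in other hormone-dominant barcodes and 10.5 in male-typed members. In the NFKO-labelled library 40 of 106 members (37.7%, 28.5 to 47.7%) held 5 or more UMIs, 5 held 1 to 4 and 61 held none, with a highest count of 69. In WT 4 of 42 (9.52%, 2.66 to 22.6%) held 5 or more and 36 held none. The counts in the NFKO-labelled library thus fell into a high and a zero class with few between.

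Gip-dominant barcodes with 5 or more Meg3 UMIs were 15.3% in the NFKO-labelled library and 8.92% in WT, Ghrl-dominant ones 1.60% and 0%, and goblet barcodes 0.140% and 0.0736%. Rian, the next non-coding RNA of the same domain, was seen in 36 of the 40 Meg3-high members and in none of the 61 without Meg3. The paternally expressed Dlk1 was seen in 24 of the 40 and 23 of the 61. The Meg3-high members, a split chosen after the values were seen, had a median Iapp share of 1.39% against 0.488%, and 1047 against 248 CPM of Serpina1a, at median depths of 17678 and 15577 UMIs. Their median Sst share was also higher, 25.5% against 15.2%. Iapp followed Sst across members, so the Iapp difference was not separated from that of Sst. Of the 8 male-typed members, 5 were Meg3-high.

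**Figure D5:**
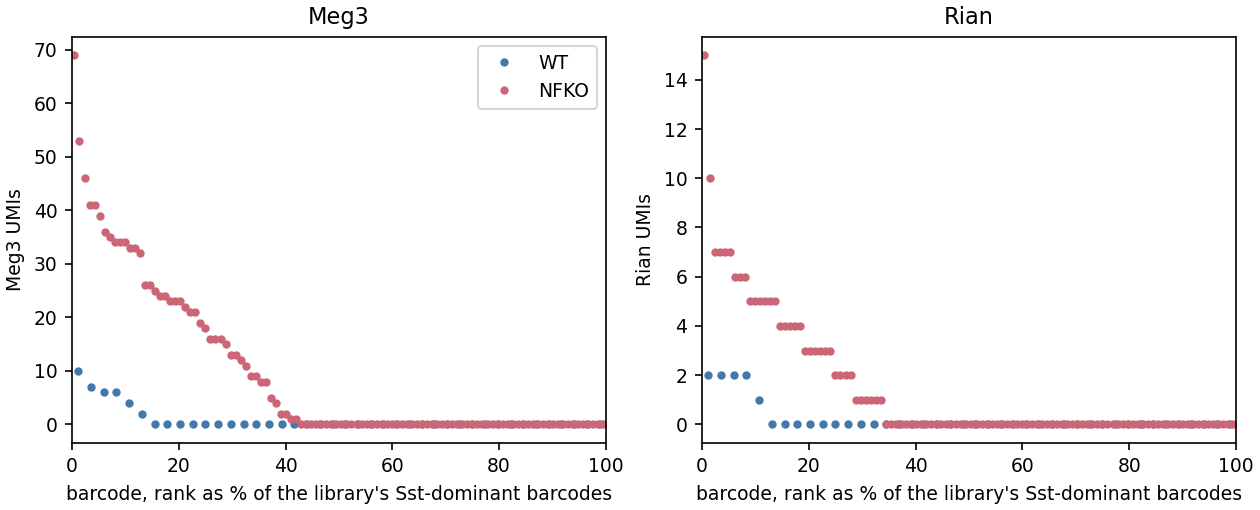
UMIs of Meg3 (left) and Rian (right) in each Sst-dominant barcode, ranked from high to low, with the rank as % of the library's Sst-dominant barcodes. In the NFKO-labelled library (red) 40 of 106 barcodes held 5 or more Meg3 UMIs and 61 held none, and in WT (blue) 4 of 42 and 36.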

How the data were processed

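Single cells were profiled with the 10x Genomics 3′ kit. The deposited values are raw UMI counts for 32285 genes per barcode, made by the authors with Cell Ranger 5.0.1 per the submitters' processing notes, on build mm10; 5051 WT and 7540 NFKO-labelled barcodes held 90002878 and 124300388 UMIs. Cells were not annotated in the files used, so classes were built from hormone UMIs as described. Counts were summed per class as CPM. Sums carry exact Poisson, shares Clopper-Pearson and ratios exact conditional binomial intervals (95%). Genes needed 50 CPM in one side and 30 UMIs over both, and were counted past 2-fold. Named genes were the 15 highest and 10 lowest ratios against other hormone-dominant barcodes in the NFKO-labelled library, and the 8 highest and 8 lowest between libraries, with UMIs in at least 25% of the barcodes of the higher side; hormones of the rule, mitochondrial, ribosomal-protein, Xist and Y-linked genes were left out. A few genes that the rule or the lists took in are counted but not reported here by name. All 12 gene lists, the members and the named-gene rule were chosen with earlier results of these data known. Goblet barcodes had at least 1% of UMIs from Muc2, Tff3, Agr2, Fcgbp, Clca1 and Zg16 and no dominant hormone. Scrublet's automatic threshold did not work (2 WT and 0 NFKO-labelled calls), so doublets were kept, and the highest scores, 0.8% per 1000 barcodes, were removed only as an alternative. Calculations used numpy 2.4.6, scipy 1.17.1, pandas 2.3.3 and scanpy 1.11.5, checked on simulated data. Positions are from GENCODE on GRCm38. Cells of 1 library are not replicates.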

Additional observations from a re-analysis of the deposited data

Results flagged for a closer look

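In all, 5 genes lay on opposite sides of 1 in the 2 libraries when Sst-dominant barcodes were divided by other hormone-dominant ones, each past 2-fold in at least 1 library; the difference between the libraries was not tested. Ambp had a ratio of 1.47 in the NFKO-labelled library and 0.114 in WT, and Id1 1.14 and 0.256. Olfm4, a crypt base gene, had 4.06 and 0.0417, but 233 of its 248 UMIs in NFKO-labelled members lay in 1 barcode. The Paneth gene Mmp7 had 0.526 and 3.25, with 108 of the 113 UMIs of WT members in 1 barcode, and Defa24, a defensin with near-identical copies, 0.453 and 1.21.

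Sst also led, at 1% or more of UMIs, in 9 WT and 20 NFKO-labelled barcodes that the filters left out. Of these, 6 and 17 were too shallow, 2 and 2 exceeded the mitochondrial limit, and 1 and 1 held 3 or more Neurog3 UMIs.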

How the results depend on the processing

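No paired analysis was possible because each group has 1 library. The WT share of kept barcodes was 0.959% with a minimum of 5000 UMIs. With male-typed barcodes only, the NFKO-labelled share of hormone-dominant barcodes was 10.96%, its Hhex ratio 39.6, its count of genes past 2-fold 794 and the count between libraries 424; the Hhex ratio was 207 without Gip-dominant barcodes with 3 or more Hhex UMIs, an alternative added after seeing the data. With no minimum beyond 3 UMIs the counts were 5294 in WT, 4892 in the NFKO-labelled library and 3378 between libraries. Against Ghrl-dominant barcodes the WT count was 544. Between libraries it was 450 with the highest doublet scores removed and 628 with each barcode at the same weight. Not thinned, members with a UMI of a second hormone were 73.8% (Gip) and 40.5% (Pyy) in WT and 97.2% (Ghrl), 98.1% (Gip) and 78.3% (Pyy) in the other library. Of 133 single genes compared between libraries, some changed side of 1: with male-typed members Zg16 (0.671), Muc2 (0.492), Agr2 (0.174), Clca1 (0.816) and Defa22 (0.653), and Mmp7 with Sst at 5% or more (2.58), highest doublet scores removed (3.28), goblet markers under 1% (1.15, added after seeing the data) or without its highest member (2.62). The causes were not tested. Depth limits genes under 6.89 CPM in WT members.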

Other observations

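Hhex was not confined to Sst-dominant barcodes. Of 149 kept barcodes of the NFKO-labelled library with 3 or more Hhex UMIs, 98 were Sst-dominant, 24 had no dominant hormone, 4 held 3 or more Neurog3 UMIs and 19 were Gip-dominant, the other 4 having a further leading hormone. In WT, 28 of 46 were Sst-dominant, 15 had no dominant hormone and none of the 213 Gip-dominant barcodes reached 3 Hhex UMIs. The 19 Gip-dominant barcodes, chosen after their values were seen, held 9781 to 79527 UMIs, and in 10 of them Sst made under 0.1%. They were set beside the 463 Gip-dominant barcodes of the same library without Hhex. Sst itself was 12260 against 53.5 CPM in the 19, with a highest share of 14.2%. In that library 4 Gip-dominant barcodes held Sst at 1% or more, with 51 Hhex UMIs. Iapp was 3265 against 35.8 CPM in the 19, Glp1r 162 against 4.03 CPM and Asic5 1007 against 41.1 CPM, while Kcnk2 had 1 barcode with a UMI. Several named D-cell genes were thus higher in them; 1 of the 19 had a high doublet score, and the part of doublets was not tested further.

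In the NFKO-labelled library 19 Nts-dominant barcodes held Sst at 1% or more, also chosen after their values were seen. They were shallow (1182 to 5678 UMIs), with Hhex in 3 of them, and held more of the secretory genes Itln1 (5034 against 321 CPM) and Mmp7 (2423 against 81.1 CPM) than the other 155.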
